A study of Mus musculus with 17 samples.

Results

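Chemokines are small secreted proteins that direct the migration of leukocytes, and they are read by receptors of the G protein-coupled family on the migrating cells. Here 41 chemokine and chemokine receptor genes were followed in mouse epididymal adipose tissue, the visceral fat pad of the male mouse. They are the genes with a symbol of the Ccl, Cxcl, Cx3cl, Xcl, Ccr, Cxcr, Cx3cr, Xcr or Ackr series, Cxcl13 left out, that had a detection p-value below 0.05 on 2 or more arrays. They comprise 27 ligands and 14 receptors, out of 55 such genes with a probe and of 17166 genes tested in all. In expanding visceral fat, CC chemokines such as Ccl2 are known for recruiting monocytes that become adipose macrophages, and macrophages themselves secrete further CC chemokines. The CXC ligands act mainly on neutrophils and lymphocytes, the lymphoid ligands guide dendritic cells and lymphocytes into lymph nodes, and the atypical receptors bind chemokines without classical G protein signalling.

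Total RNA of 17 fat pads was hybridised to Illumina bead arrays, 1 array per sample. The mice were on the WBB6F1 background and carried 1 of 3 genotypes, Cpa3+/+, Cpa3Cre/+ or KitW/Wv. For 12 weeks they ate either HFD, with 60% of calories from fat, or a chow diet with 6% fat, here called LFD, and the tissue was taken after a 5 h fast. There were 2 arrays of Cpa3+/+ on HFD and 3 arrays in each of the other 5 groups. Cpa3Cre places Cre recombinase in the gene of mast cell carboxypeptidase A3, and mice that carry it lack mast cells while their Kit gene is intact. KitW/Wv mice carry loss-of-function alleles of the Kit receptor and lack mast cells too, but reduced Kit signalling also affects other blood cell lineages, germ cells and pigment cells, so the 2 genotypes differ in more than mast cells. The labels do not say whether the arrays of a group came from separate cohorts or litters, and p-values here measure the spread between arrays.

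The arrays had median signals of 98.6 to 107.4 and detected 46.9% to 51.7% of their 46237 probes. Within a group, arrays correlated with r of 0.938 to 0.986 across the 17166 genes tested, after normalization, and no 2 arrays held identical values. Cpa3, the targeted gene in Cpa3Cre/+ mice, was at 7.32 to 8.54 on the Cpa3+/+ arrays, 4.09 to 5.21 on the Cpa3Cre/+ arrays and 4.12 to 4.26 on the KitW/Wv arrays. Levels here are log2 signals after background correction and quantile normalization, on which the lowest detected probes lay at 4.33 to 4.42. Adiponectin, the defining product of adipocytes, lay at 13.6 to 14.0 over the arrays. In a list with 2 or more measured markers of other cells, the macrophage and mast cell lists aside, 4 arrays lay over 1.5 above the mean of all arrays. Cpa3+/+ LFD 3 lay 5.34 above the mean of all arrays in epididymis and testis genes. KitW/Wv HFD 1 lay 2.20 above it in B cell genes. Cpa3Cre/+ LFD 2 and KitW/Wv LFD 3 lay 2.05 and 1.72 above it in monocyte genes, of which 2 were measured. Cpa3Cre/+ LFD 2 was also above the mean in mesothelium (1.31), epididymis (1.14) and muscle genes (1.07). KitW/Wv LFD 3 was also above it in B cell (1.14), epididymis (1.02) and mesothelium genes (0.91). In macrophage genes Cpa3Cre/+ LFD 2 and KitW/Wv LFD 3 lay at -0.86 and -0.26 from the mean. In the lymph node stroma list, with 1 measured gene, KitW/Wv HFD 1, KitW/Wv LFD 3 and KitW/Wv HFD 3 lay 4.28, 3.99 and 2.90 above the mean, and KitW/Wv HFD 3 is not among the 4. Whole tissue was measured throughout, so fewer cells of a type and less RNA per cell cannot be told apart.

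Of the 41 genes, 19 were detected on every array and 28 in every group. The 22 others passed the detection rule on 2 to 16 arrays, among them 7 on fewer than 6 arrays, and Cxcr6 was detected in 1 group only. The 14 chemokine genes with a probe that did not pass comprised 6 ligands and 8 receptors. The receptors were Ccr1, Ccr1l1, Ccr2, Ccr3, Ccr8, Ccr9, Cxcr1 and Xcr1, and the ligands were Ccl1, Ccl26, Ccl28, Cxcl3, Cxcl11 and Cxcl15. Ccr1, Ccr2 and Ccr3, the receptors of the inflammatory CC ligands and the eotaxins, were above background on 0 of the 17 arrays. No probe with the symbol Ccl8, Ccl12 or Cxcl5 was used here.

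The genes cluster in the genome. In the RefSeq annotation of GRCm38.p6, 11 of the 41 lie on chromosome 11. Ccl5, Ccl9, Ccl6, Ccl3 and Ccl4 follow each other there with 0 other protein-coding genes in between, and Ccl2, Ccl7 and Ccl11 form a second block. Of the 5 ligands that were higher on HFD in Cpa3Cre/+ mice, 4 belong to the first block and Ccl2 to the second. Promoter windows from RefSeq, from 250 bases before to 50 bases after the start site, were at hand for 29 of the 41 genes. The windows of Ccl9, Ccl6 and Ccl3 are shown because these neighbours rose together on HFD in Cpa3Cre/+ mice. All 3 lie on the minus strand of chromosome 11, Ccl9 at chr11:83578587-83578886, Ccl6 at chr11:83593038-83593337 and Ccl3 at chr11:83649329-83649628. Capitals mark matches, on either strand, to the NF-kB consensus, to the AP-1 motif TGANTCA, to the ETS-type core GAGGAA that the macrophage factor PU.1 can bind, and to TATAAA.
Ccl9: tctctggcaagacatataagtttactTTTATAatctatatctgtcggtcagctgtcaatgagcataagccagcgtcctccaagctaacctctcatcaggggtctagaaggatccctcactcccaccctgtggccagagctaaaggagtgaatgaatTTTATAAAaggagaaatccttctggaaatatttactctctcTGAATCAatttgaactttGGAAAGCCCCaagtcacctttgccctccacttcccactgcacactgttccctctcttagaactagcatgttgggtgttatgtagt
Ccl6: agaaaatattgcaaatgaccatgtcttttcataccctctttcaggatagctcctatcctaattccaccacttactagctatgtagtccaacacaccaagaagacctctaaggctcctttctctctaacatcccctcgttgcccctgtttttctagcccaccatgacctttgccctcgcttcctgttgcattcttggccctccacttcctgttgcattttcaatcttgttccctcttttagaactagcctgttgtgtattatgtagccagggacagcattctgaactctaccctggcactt
Ccl3: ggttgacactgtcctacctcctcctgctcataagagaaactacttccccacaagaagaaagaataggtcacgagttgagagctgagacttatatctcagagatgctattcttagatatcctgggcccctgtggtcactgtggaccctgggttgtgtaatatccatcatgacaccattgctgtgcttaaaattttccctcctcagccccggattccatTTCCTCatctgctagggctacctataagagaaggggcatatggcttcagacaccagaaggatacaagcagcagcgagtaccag

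In the Ccl9 window the NF-kB consensus matched on the minus strand from base -35 relative to the start site, and TGANTCA matched from base -53. The TATAAA matches of the Ccl9 window began at bases -224, -94 and -92, and the last 2 of these overlap. The Ccl3 window held 1 match to GAGGAA, on the minus strand from base -33, and the Ccl6 window held none of the 4 motifs. Among all 32851 promoter windows of the table, 5.8% held the NF-kB consensus, 7.81% TGANTCA, 28.3% GAGGAA and 13.6% TATAAA. Among the 29 chemokine genes with a window, 8 held in at least 1 window the NF-kB consensus, 5 TGANTCA, 10 GAGGAA and 7 TATAAA. Ccl9 and Ccl6, neighbours and close relatives, shared a run of 13 bases, gccctccacttcc, from base -14 in Ccl9 and from base -55 in Ccl6. The longest run that Ccl3 shared with either of them was 8 bases. These matches describe letters in the windows, and binding was not measured.

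The inflammatory CC ligands held 7 of the 9 diet calls of the family. In Cpa3Cre/+ mice, 5 of the 7 were higher on HFD than on LFD, namely Ccl2, Ccl3, Ccl4, Ccl6 and Ccl9. In Cpa3+/+ mice, Ccl3 and Ccl9 were higher, and in KitW/Wv mice 0 of the 7 passed the threshold. The median difference over the 7 was 1.78 on the log2 scale in Cpa3Cre/+, 0.93 in Cpa3+/+ and 0.17 in KitW/Wv, against medians over all genes of -0.02, -0.02 and 0.00. The test was limma's moderated test over all 17 arrays, with p-values adjusted over all 17166 genes and a threshold of 0.05.

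Ccl9, a ligand of Ccr1 made by macrophages and other myeloid cells, gave the clearest separation. On LFD its log2 level was 11.85, 12.22 and 11.85 in Cpa3+/+, 11.71, 11.12 and 11.74 in Cpa3Cre/+, and 11.80, 11.85 and 11.77 in KitW/Wv. On HFD it was 12.92 and 12.87 in Cpa3+/+, 13.27, 13.51 and 13.22 in Cpa3Cre/+, and 12.53, 12.35 and 12.04 in KitW/Wv. Every HFD array lay above every LFD array of its own genotype, and the HFD arrays of the 3 genotypes did not overlap each other. In the deposited signal, Ccl9 rose from 3874 ± 354.6 (SD, n = 3) to 7997 ± 141.4 (SD, n = 2) in Cpa3+/+ and from 3009 ± 687.8 (SD, n = 3) to 11388 ± 656.0 (SD, n = 3) in Cpa3Cre/+. In KitW/Wv the signal was 3353 ± 94.6 on LFD and 5174 ± 976.5 on HFD (SD, n = 3 each). The fitted difference was 0.93 (SE 0.21, adjusted p = 0.0186) in Cpa3+/+ and 1.81 (SE 0.18, adjusted p = 1.8e-05) in Cpa3Cre/+. In KitW/Wv it was 0.50 (SE 0.18), with an unadjusted limma p of 0.0171 and an adjusted p of 1.00.

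Ccl3, the macrophage inflammatory protein that signals through Ccr1, was close to background on LFD. Its level there was 4.20, 4.19 and 4.98 in Cpa3+/+, 4.26, 4.78 and 4.19 in Cpa3Cre/+, and 4.76, 4.61 and 4.17 in KitW/Wv, with 1, 1 and 2 of the 3 arrays above background. On HFD the level was 5.60 and 5.63 in Cpa3+/+, 6.34, 6.42 and 6.27 in Cpa3Cre/+, and 4.87, 5.10 and 4.36 in KitW/Wv. The Cpa3+/+ and Cpa3Cre/+ HFD arrays lay above every other array, while the KitW/Wv diets overlapped. The difference was 1.16 (SE 0.28, adjusted p = 0.0276) in Cpa3+/+, 1.93 (SE 0.25, adjusted p = 0.00014) in Cpa3Cre/+ and 0.26 (SE 0.25, adjusted p = 1.00) in KitW/Wv.

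Ccl4, a macrophage inflammatory protein whose gene lies beside Ccl3, read 5.42, 4.90 and 5.94 on LFD and 6.51 and 7.05 on HFD in Cpa3+/+. In Cpa3Cre/+ it read 5.45, 5.80 and 4.73 on LFD and 7.08, 6.60 and 7.62 on HFD, and in KitW/Wv 6.21, 5.17 and 5.53 on LFD and 6.48, 5.55 and 5.34 on HFD. The diets separated in the first 2 genotypes and overlapped in KitW/Wv. The difference passed the threshold in Cpa3Cre/+, at 1.78 (SE 0.39, adjusted p = 0.00991), and not in Cpa3+/+, at 1.36 (SE 0.44, adjusted p = 0.103). Its second probe, detected on 9 arrays, had a smaller difference of the same sign, 0.89 in Cpa3Cre/+.

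Ccl2, the ligand of Ccr2 that recruits monocytes, read 4.15, 5.17 and 5.14 on LFD and 5.71 and 5.57 on HFD in Cpa3+/+. In Cpa3Cre/+ it read 5.11, 4.26 and 4.40 on LFD and 6.48, 7.03 and 5.63 on HFD. The KitW/Wv arrays read 4.50, 4.76 and 4.30 on LFD and 5.31, 4.24 and 4.52 on HFD, and all 6 lay below every Cpa3Cre/+ and Cpa3+/+ HFD array. Its rise in Cpa3Cre/+ was 1.79 (SE 0.38, adjusted p = 0.00713), with 1 of 3 LFD arrays above background, and the Cpa3+/+ difference was 0.82 (SE 0.42, adjusted p = 0.339).

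Ccl6, a Ccr1 ligand of mice that is expressed by macrophages, read 8.23, 7.78 and 8.50 on LFD and 9.35, 9.22 and 9.51 on HFD in Cpa3Cre/+, a rise of 1.19 (SE 0.24, adjusted p = 0.00537). In Cpa3+/+ it read 8.82, 9.27 and 8.32 on LFD and 9.05 and 9.33 on HFD, so the diets overlapped. In KitW/Wv it read 8.26, 8.77 and 8.32 on LFD and 9.24, 8.89 and 8.98 on HFD, which did not overlap, and the difference of 0.59 (SE 0.24) had an adjusted p of 1.00. Ccl7, a relative of Ccl2 that also binds Ccr2, differed by 1.66 in Cpa3Cre/+ (adjusted p = 0.102), and Ccl5, a T cell and macrophage product, by 0.75. Neither passed in any of the 12 comparisons, and Ccl5 ranged from 6.86 to 9.52 within the Cpa3Cre/+ HFD group alone.

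**Figure D1:**
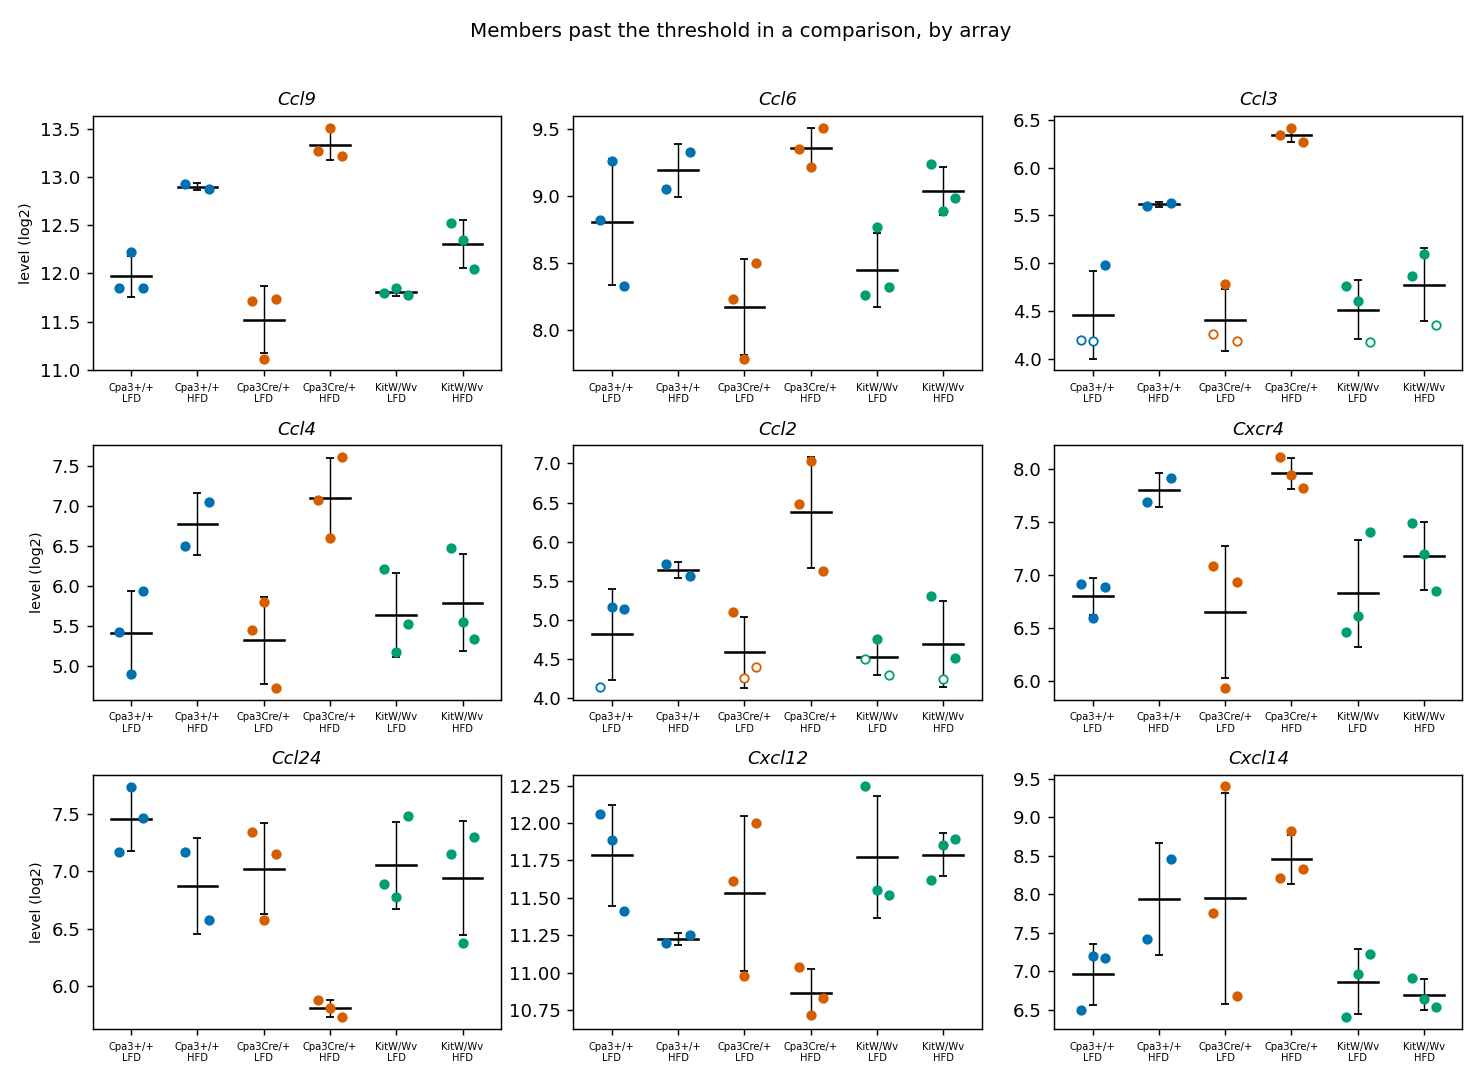
Log2 level of the 9 genes that passed the threshold in at least 1 comparison, by genotype and diet. Each point is 1 array, filled where the probe was above background and open where it was not, lines are group means and bars are SD (n = 2 for Cpa3+/+ HFD, 3 otherwise). Ccl9 and Ccl3 sit highest on the 3 Cpa3Cre/+ HFD arrays, and Ccl24 sits lowest there.

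Macrophage markers moved with the same groups. Of the 8 macrophage genes on the list, 5 were higher on HFD in Cpa3+/+ (median difference 1.42), 7 in Cpa3Cre/+ (2.01) and 0 in KitW/Wv (0.09). Their mean level spanned 8.76 to 8.94 on Cpa3+/+ LFD and 10.11 to 10.18 on HFD, 8.56 to 8.86 and 10.63 to 10.65 in Cpa3Cre/+, and 9.07 to 9.17 and 9.29 to 9.38 in KitW/Wv. Their part in the chemokine differences was not tested.

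Over the whole family, 2 of the 41 genes passed for diet in Cpa3+/+, both higher, which is 4.88% of the members against 4.65% of all genes tested. Genes called higher made up 3.44% of all genes and genes called lower 1.21%. In Cpa3Cre/+ 7 of 41 passed, or 17.1%, with 6 higher and 1 lower, against 9.1% of all genes, of which 5.88% were higher and 3.22% lower. With median scaling in place of quantile normalization, 9 members were higher and 1 lower, among 1793 genes called of which 1554 were higher. In KitW/Wv 0 of 41 passed, against 0.00583% of all genes, which is 1 gene. At an unadjusted p below 0.05 the members counted 8, 14 and 4 in Cpa3+/+, Cpa3Cre/+ and KitW/Wv, against 17.4%, 20.9% and 3.4% of all genes. The arrays of the diets did not overlap for 17 members in Cpa3+/+, 12 in Cpa3Cre/+ and 5 in KitW/Wv, against 33.5%, 24.1% and 9.9% of all genes. The medians over the 41 genes were 0.06, 0.08 and 0.03. The Cpa3+/+ count is thus near its background, and 3 of its arrays each decide it: without LFD 1, HFD 1 or HFD 2 it was 0, and without Cpa3Cre/+ LFD 3, which enters through the shared spread, it was 4. It was also 0 when only the groups compared were fitted. Ccl9 missed the threshold without LFD 1, HFD 1 or HFD 2 (adjusted p = 0.0603, 0.148 and 0.128). Ccl3 missed it without LFD 1, LFD 2, HFD 1 or HFD 2 (adjusted p = 0.0947, 0.0830, 0.169 and 0.184), and also with median scaling (adjusted p = 0.0506).

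**Figure D2:**
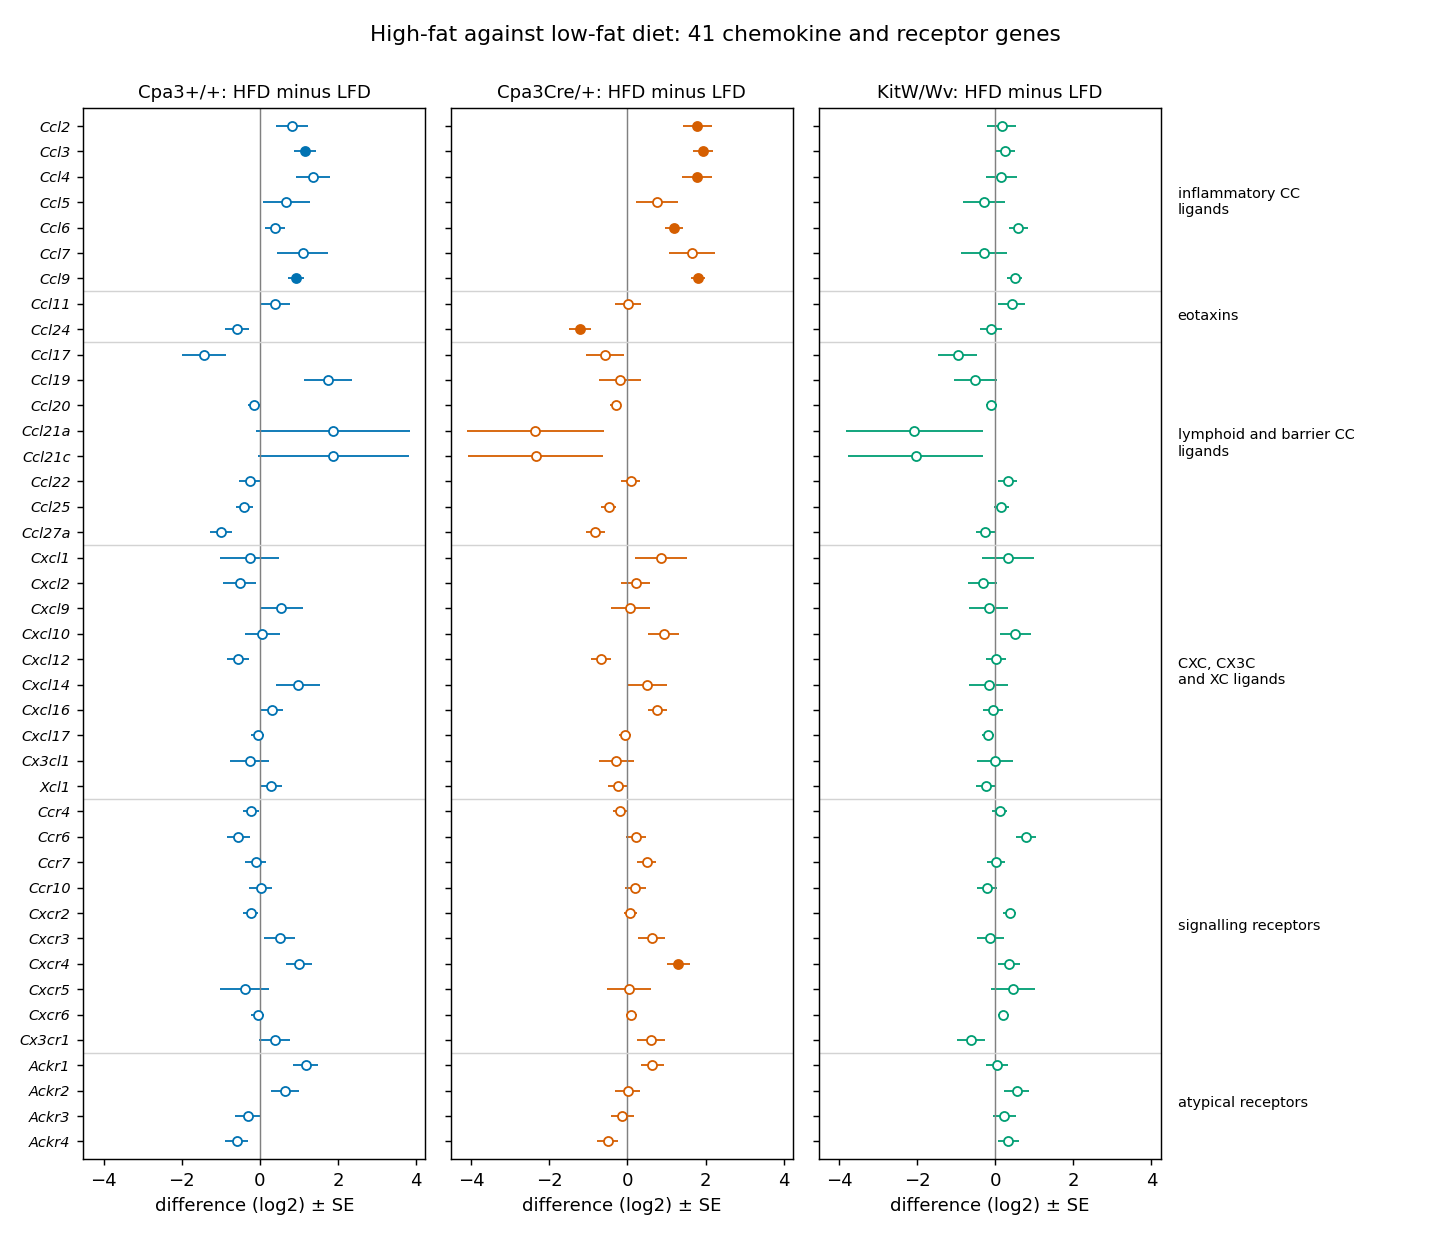
Difference in log2 level between HFD and LFD (bars, SE) for the 41 genes, grouped by role, in each genotype. Filled points passed an adjusted p of 0.05, and the filled points are 2 in Cpa3+/+, 7 in Cpa3Cre/+ and 0 in KitW/Wv.

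Without the 4 arrays high in markers of other cells, an alternative added after the data were seen, the count was 4 in Cpa3+/+, 12 in Cpa3Cre/+ and 0 in KitW/Wv, against 6.17%, 8.93% and 0.0175% of all genes. All of the members called with all arrays were among them. The additional members were Ccl4 and Cxcr4 in Cpa3+/+, and Ackr4, Cx3cr1, Cxcl10, Cxcl12 and Cxcl16 in Cpa3Cre/+. In Cpa3+/+, Ccl4 differed by 1.62 and Cxcr4 by 1.04. In Cpa3Cre/+, Cxcl10 differed by 1.08 (adjusted p = 0.0334). Cxcl16, the ligand of Cxcr6 that is also a scavenger receptor, differed there by 0.97 (adjusted p = 0.0337). Cx3cr1, the fractalkine receptor of monocytes and macrophages, differed by 0.86 (adjusted p = 0.0398). Cxcl12, on the probe used, and Ackr4 were lower on HFD, at -0.94 (adjusted p = 0.0209) and -0.82 (adjusted p = 0.0398).

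Ccl24, an eotaxin that attracts eosinophils through Ccr3 and is made by tissue-resident macrophages, moved opposite to the inflammatory ligands. In Cpa3Cre/+ it read 7.35, 6.58 and 7.15 on LFD and 5.88, 5.81 and 5.73 on HFD. In Cpa3+/+ it read 7.17, 7.73 and 7.47 on LFD and 7.17 and 6.58 on HFD, and in KitW/Wv 6.89, 6.77 and 7.48 on LFD and 7.15, 6.38 and 7.30 on HFD. The 3 Cpa3Cre/+ HFD arrays were the lowest of all 17. The difference was -1.22 (SE 0.28, adjusted p = 0.0123) in Cpa3Cre/+, -0.58 in Cpa3+/+ and -0.11 in KitW/Wv. Without Cpa3Cre/+ LFD 1 the Cpa3Cre/+ call ended, at -1.06 (adjusted p = 0.0511), as did that of Ccl4 without Cpa3Cre/+ LFD 3, at 1.48 (adjusted p = 0.0531). Ccl11, the other eotaxin measured, passed in none of the 12 comparisons, with diet differences of 0.40, 0.01 and 0.42 in Cpa3+/+, Cpa3Cre/+ and KitW/Wv. Of the 2 eosinophil markers measured, 0 passed for diet in each genotype. Of the 5 resident macrophage markers, 1 was higher and 0 lower on HFD in Cpa3Cre/+, with a median of -0.13. In Cpa3+/+ and KitW/Wv 0 passed, with medians of -0.28 and 0.12. The part of these cells in the Ccl24 difference was not tested.

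Of the 14 receptors, Cxcr4 alone passed in a comparison. Cxcr4, which binds Cxcl12 and retains leukocytes in marrow and tissue, read 7.08, 5.94 and 6.93 on LFD and 8.11, 7.94 and 7.82 on HFD in Cpa3Cre/+, a rise of 1.30 (SE 0.29, adjusted p = 0.0108). In Cpa3+/+ it read 6.92, 6.59 and 6.88 on LFD and 7.69 and 7.91 on HFD, which did not overlap, with a difference of 1.00 (SE 0.33, adjusted p = 0.107). In KitW/Wv the diets overlapped, with 6.46, 6.61 and 7.40 on LFD and 7.49, 7.20 and 6.85 on HFD. Fitted on the 2 Cpa3Cre/+ groups alone, Cxcr4 had an adjusted p of 0.0700 and Ccl2 one of 0.0550. The other signalling receptors had diet differences between -0.62 and 0.80 over the 3 genotypes, and all but Ccr7, Cxcr3 and Cx3cr1 were undetected on 7 or more arrays. Ackr1, the atypical receptor of venular endothelium and red cells, differed by 1.17 in Cpa3+/+ (SE 0.32, adjusted p = 0.0554), 0.63 in Cpa3Cre/+ and 0.05 in KitW/Wv.

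The genotypes were next compared within a diet. On HFD, KitW/Wv differed from Cpa3Cre/+ in 6 of 41 members, or 14.6%, against 7.85% of all genes. 4 members were lower in KitW/Wv (4.86% of all genes) and 2 were higher (2.99% of all genes). With median scaling 5 members were lower and 1 higher, among 1601 genes called of which 263 were higher. This comparison shares its Cpa3Cre/+ HFD arrays with the diet comparison in Cpa3Cre/+, so the genes named in both are not 2 separate observations. Ccl3 was lower by 1.57 on the log2 scale (SE 0.25, adjusted p = 0.00136), Ccl9 by 1.03 (SE 0.18, adjusted p = 0.00316) and Ccl2 by 1.69 (SE 0.38, adjusted p = 0.0126), and Ccl24 was higher by 1.14 (SE 0.28, adjusted p = 0.0214). Ccl4 did not pass, at -1.31 (adjusted p = 0.0569). The arrays of the 2 groups did not overlap for any of the 6 genes. Such separation was found for 15 of the 41 members and for 4985 of all 17166 genes. Of the 8 macrophage markers 6 were lower in KitW/Wv as well, with a median of -1.47 over the 8. In the same comparison 3 of 4 neutrophil markers, 2 of 5 T and NK cell markers and 1 of 2 B cell markers were higher in KitW/Wv. So were 1 of 2 eosinophil markers, 1 of 5 resident macrophage markers and 1 of 3 lymphatic endothelium markers. Cxcl13, the 1 lymph node stroma gene measured outside the 41, was also higher (4.64). Of the lipid associated macrophage markers 4 of 6 were lower (median -2.38), and of the stromal progenitor markers 1 of 4 (median -0.72). The part of these cells in the chemokine differences was not tested.

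Cxcl14, a chemokine of epithelial and stromal cells, read 8.22, 8.82 and 8.33 in Cpa3Cre/+ on HFD against 6.92, 6.64 and 6.54 in KitW/Wv, lower by 1.76 in KitW/Wv (SE 0.50, adjusted p = 0.0462). On LFD it read 7.76, 9.40 and 6.68 in Cpa3Cre/+ and 6.40, 6.96 and 7.23 in KitW/Wv, and in Cpa3+/+ 6.50, 7.20 and 7.17 on LFD and 7.42 and 8.45 on HFD. Its high LFD value came from Cpa3Cre/+ LFD 2, the array high in monocyte genes, which also lay 1.31 above the mean of all arrays in mesothelium markers. Its second probe had a similar difference, -1.94. The Cxcl14 call ended in 14 of the 17 fits that left out 1 array, that is all but those without Cpa3+/+ LFD 1, Cpa3Cre/+ LFD 2 or Cpa3Cre/+ LFD 3, with adjusted p from 0.0511 to 0.169. The count of 6 fell to 3 without Cpa3Cre/+ HFD 1, Cpa3Cre/+ HFD 3, KitW/Wv HFD 2 or KitW/Wv HFD 3 and to 2 without Cpa3Cre/+ HFD 2. It was 10 without the 4 arrays high in markers of other cells, where 8.16% of all genes were called, and Ccl3 and Ccl9 passed in each of these fits. Ccl2 missed the threshold without Cpa3Cre/+ HFD 2, KitW/Wv HFD 2 or KitW/Wv HFD 3 (adjusted p = 0.0724, 0.0600 and 0.0573). Ccl24 missed it without any 1 of the 3 Cpa3Cre/+ HFD arrays, KitW/Wv HFD 1 or KitW/Wv HFD 3, with adjusted p from 0.0560 to 0.104.

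Cxcl12, the stromal ligand of Cxcr4 and Ackr3, read 11.04, 10.72 and 10.83 in Cpa3Cre/+ on HFD against 11.62, 11.85 and 11.89 in KitW/Wv, higher by 0.93 in KitW/Wv (SE 0.26, adjusted p = 0.0390). On LFD it read 11.61, 10.98 and 12.00 in Cpa3Cre/+ and 12.25, 11.55 and 11.52 in KitW/Wv, and in Cpa3+/+ it read 12.06, 11.88 and 11.41 on LFD and 11.20 and 11.25 on HFD. The value rests on 1 of 5 probes. The 2 others that were detected on all 17 arrays had differences of 0.16 and 0.33 between the same groups, and for diet in Cpa3+/+ they read 1.37 and 0.95 where the probe used read -0.56. Averaged over its detected probes, the difference was 0.36 (adjusted p = 0.577), so the difference for Cxcl12 depends on the probe. The call also ended without any 1 of the 8 HFD arrays, with adjusted p from 0.0546 to 0.140. Which transcripts each probe reads was not examined.

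On HFD, 0 of 41 members differed between KitW/Wv and Cpa3+/+ (2.36% of all genes did) and 0 between Cpa3Cre/+ and Cpa3+/+ (0.0408% of all genes). At an unadjusted p below 0.05 these comparisons held 12 and 5 members, against 14.5% and 4.86% of all genes. The smallest adjusted p values were 0.140, for Ccr6 between KitW/Wv and Cpa3+/+, and 0.928, for Ccl24 between Cpa3Cre/+ and Cpa3+/+. With array weights, a fit that gives noisier arrays less weight, 5 members passed between KitW/Wv and Cpa3+/+, against 8.47% of all genes. They were Ccl3, Ccl9 and Ackr1, lower in KitW/Wv, and Ackr4 and Ccr6, higher. Without KitW/Wv HFD 3, 1 member passed there. On LFD, 0 of 41 members passed between Cpa3Cre/+ and Cpa3+/+ (0.035% of all genes), KitW/Wv and Cpa3+/+ (0.0466%) or KitW/Wv and Cpa3Cre/+ (0% of all genes). At an unadjusted p below 0.05 these comparisons held 2, 2 and 1 members, against 3.47%, 5.17% and 4.5% of all genes.

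The diet responses themselves were then compared between genotypes. Between KitW/Wv and Cpa3Cre/+, 2 of 41 members, or 4.88%, had a smaller response in KitW/Wv, against 2.54% of all genes, of which 2.09% were smaller or more negative and 0.449% larger. They were Ccl9, by -1.31 (SE 0.26, adjusted p = 0.0126), and Ccl3, by -1.67 (SE 0.35, adjusted p = 0.0184). Ccl2 at -1.62 (adjusted p = 0.155), Ccl4 at -1.62 (adjusted p = 0.179) and Ccl24 at 1.11 (adjusted p = 0.201) did not pass. The count fell to 1 without Cpa3Cre/+ LFD 3, Cpa3Cre/+ HFD 2, KitW/Wv LFD 1, KitW/Wv LFD 2 or KitW/Wv HFD 3, in each of which Ccl3 missed the threshold, with adjusted p from 0.0504 to 0.0531, and Ccl9 passed. Between KitW/Wv and Cpa3+/+, 0 of 41 passed (0.885% of all genes), with 6 at an unadjusted p below 0.05 against 11.8% of all genes. Between Cpa3Cre/+ and Cpa3+/+, 0 of 41 passed (0% of all genes), with 3 at an unadjusted p below 0.05 against 4% of all genes. The larger responses in Cpa3Cre/+, for instance by 0.88 (SE 0.28) for Ccl9 and 0.78 (SE 0.37) for Ccl3, are therefore not shown to differ from those in Cpa3+/+.

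Ligands were paired with their known receptors. Both partners were measured in 18 pairs. In 13 the ligand was measured and the receptor undetected, among them every Ccr1, Ccr2 and Ccr3 pairing of Ccl2, Ccl3, Ccl5, Ccl6, Ccl7, Ccl9, Ccl11 and Ccl24. In 0 of the 12 comparisons did both partners of a pair pass. For diet in Cpa3Cre/+ 1 pair of the 18 had the receptor alone, Cxcr4 at 1.30, whose ligand Cxcl12 read -0.67 (adjusted p = 0.137). The other Cxcl12 probes detected on all 17 arrays read 0.28 and 0.13 there, and a probe detected on 6 arrays read 0.53. The sign for Cxcl12 thus depends on the probe. Between KitW/Wv and Cpa3Cre/+ on HFD, 2 pairs had the ligand alone, Cxcl12 with Cxcr4 (-0.78, adjusted p = 0.133) and Cxcl12 with Ackr3. Ackr3, a scavenging receptor for Cxcl12, was above background on 4 arrays. It read 5.07, 4.35 and 4.10 on LFD and 4.25 and 4.13 on HFD in Cpa3+/+, 5.21, 4.10 and 4.27 on LFD and 4.72, 4.33 and 4.12 on HFD in Cpa3Cre/+, and 4.19, 4.08 and 4.28 on LFD and 4.35, 4.20 and 4.72 on HFD in KitW/Wv. The diets overlapped in every genotype.

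**Figure D3:**
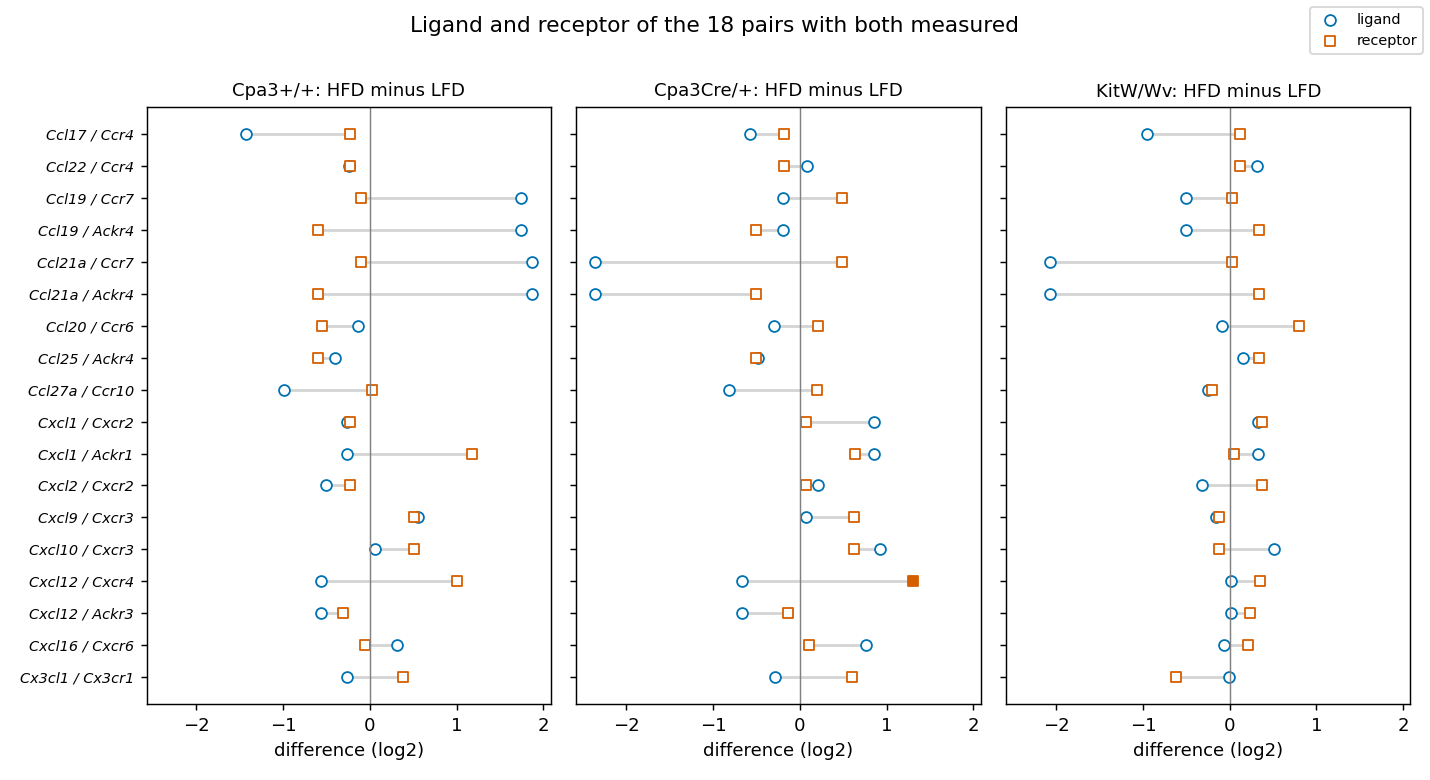
HFD minus LFD difference in log2 level of the ligand (circle) and the receptor (square) in the 18 pairs with both measured, by genotype. Filled symbols passed an adjusted p of 0.05, and the only one is Cxcr4 in Cpa3Cre/+, at 1.30. Ligands and receptors with several partners appear in several rows. Cxcl12 is drawn from its brightest probe, whose sign differed from that of its other detected probes in Cpa3+/+ and Cpa3Cre/+.

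The lymphoid and barrier CC ligands, 8 genes, passed in none of the 12 comparisons, and Ccl21a and Ccl21c varied more within groups than any other member. Ccl21a, the lymph node ligand of Ccr7, read 8.14, 10.19 and 11.60 in Cpa3+/+ LFD, 12.12 and 11.58 in Cpa3+/+ HFD, 4.28, 11.11 and 9.86 in Cpa3Cre/+ LFD and 5.15, 4.36 and 8.65 in Cpa3Cre/+ HFD. In KitW/Wv it read 11.91, 8.83 and 10.76 on LFD and 6.04, 11.80 and 7.45 on HFD. Its within-group SD of 2.45 was the highest of the 41 genes, followed by 2.41 for Ccl21c, and the highest of the rest was 0.93, for Cxcl1. Ccl21a and Ccl21c are near-identical copies, and their probes may read each other's transcript. Ccl19, the other Ccr7 ligand, ranged from 5.42 to 8.38, and Ccr7 itself from 4.34 to 5.22, near background. Ccl27a, known as a skin chemokine that binds Ccr10, differed with diet by -0.99 in Cpa3+/+ (adjusted p = 0.0571) and -0.82 in Cpa3Cre/+ (adjusted p = 0.0532). Ccl17, a ligand of Ccr4, was above background on 3 of 3 Cpa3+/+ LFD arrays and 0 of 2 HFD arrays. Its LFD mean was 2.51-fold the level of the lowest detected probes on the HFD arrays. The LFD arrays spanned 5.12 to 6.82, and the diet difference did not pass (adjusted p = 0.186).

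Cxcr5, the receptor with which B cells enter follicles, was at 7.16 in KitW/Wv HFD 1 and 6.34 in KitW/Wv LFD 3, and at 5.43 in KitW/Wv HFD 3. It lay at 4.97 or below on the other 14 arrays. These levels are of its brightest probe, and its other probes were detected on 2 and 4 arrays. The B cell markers measured, Ms4a1 and Cd79b, averaged 5.53 to 6.67 on KitW/Wv LFD and 5.98 to 7.73 on KitW/Wv HFD. They averaged 4.72 to 5.51 on all Cpa3+/+ and Cpa3Cre/+ arrays. Cxcl13, itself a chemokine and the 1 lymph node stroma gene given above, was high on the same 3 KitW/Wv arrays. Ccl21a, also on that list, read 6.04 and 7.45 on KitW/Wv HFD 1 and 3, 11.80 on HFD 2 and 10.76 on LFD 3. These relations were not tested.

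**Figure D4:**
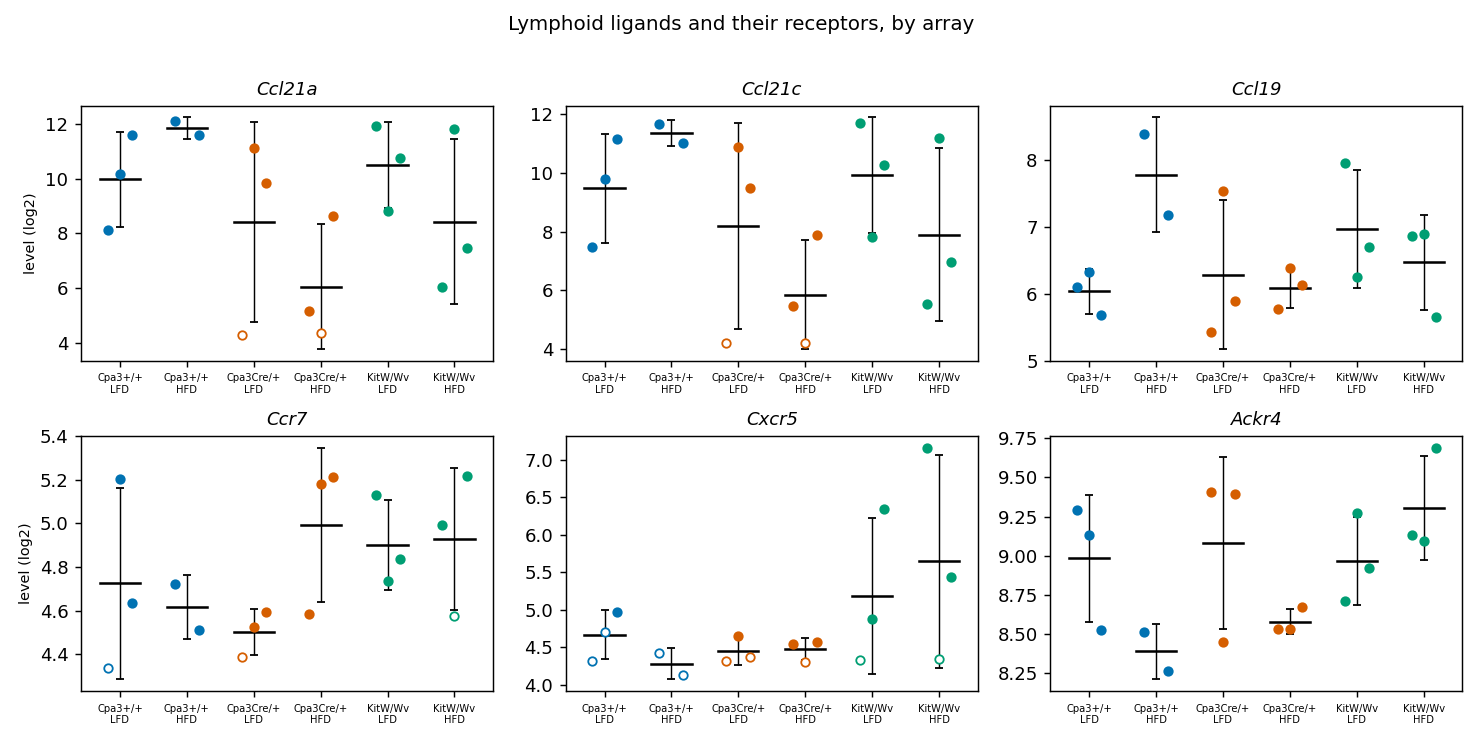
Log2 level of lymphoid ligands and of receptors Ccr7, Cxcr5 and Ackr4 by genotype and diet. Points are arrays (open where not above background), lines are means and bars are SD (n = 2 for Cpa3+/+ HFD, 3 otherwise). Ccl21a spans 4.28 to 11.11 within the Cpa3Cre/+ LFD group, and Cxcr5 peaks at 7.16 in 1 KitW/Wv HFD array.

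The 10 CXC, CX3C and XC ligands passed in no diet comparison. The interferon-induced Cxcr3 ligands Cxcl9 and Cxcl10 differed by 0.93 or less in every genotype, and Cxcl10 did not overlap between the diets in Cpa3Cre/+, with 4.18, 4.62 and 4.15 on LFD and 5.18, 5.33 and 5.22 on HFD. Cxcl1, a neutrophil attractant, reached 8.04 in KitW/Wv LFD 1 and 8.16 in KitW/Wv HFD 1 and lay at 6.88 or below on the other 15 arrays. Cx3cl1, the membrane-bound fractalkine, was highest at 7.82 in Cpa3+/+ LFD 3 and 7.52 in Cpa3Cre/+ LFD 2, both among the arrays high in markers of other cells. The probes of Cxcl2, Cxcl10, Cxcl12, Cxcl17, Ccr6, Cxcr2, Cxcr5 and Ackr4 differed in sign for at least 1 diet comparison. For Cxcl17 and Cxcr2 the second probe was detected on 0 and 1 arrays. The probes of Ccl7, Ccl27a and Cxcl16 had 1 sign in each diet comparison.

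Of 54 other listed genes of the chemokine pathway, 47 were measured. The list was chosen with earlier results of these data known. On HFD 12 were higher and 1 lower in Cpa3+/+, 17 higher and 2 lower in Cpa3Cre/+, and 0 passed in KitW/Wv. Of all genes, 3.44% were higher and 1.21% lower in Cpa3+/+, and 5.88% and 3.22% in Cpa3Cre/+. In KitW/Wv 0.00583% of all genes passed. Of the 18 signalling genes, 8 rose in Cpa3+/+ and 9 in Cpa3Cre/+, with none lower. The largest in Cpa3Cre/+ were the integrin chain Itgb2 (2.49, adjusted p = 1.26e-06), the integrin activator Fermt3 (2.46), the actin regulator Was (2.11) and the exchange factor Vav1 (2.07). Among genes that switch receptors off, Rgs1, which shortens G protein signals from chemokine receptors, rose by 4.33 in Cpa3Cre/+ (adjusted p = 2.05e-06) and 3.51 in Cpa3+/+, while Rgs2 fell by 2.14 and 2.32. Ccrl2, an atypical receptor that presents chemerin, rose by 1.38 in both. Sdc1, a proteoglycan that binds chemokines, rose by 2.15 in Cpa3Cre/+ and 2.14 in Cpa3+/+, and Mmp9 fell by 1.96 in Cpa3Cre/+. Of the 9 inducers and transcription factors of chemokine genes measured, 0 passed for diet in Cpa3+/+. In Cpa3Cre/+ 1 of them passed, Nfkb2, higher by 1.06 (adjusted p = 0.0251). On HFD, 11 of the 47 were lower and 1, Il1b (1.17), was higher in KitW/Wv than in Cpa3Cre/+. Of all genes 4.86% were lower and 2.99% higher there. The diet response of 7 was smaller in KitW/Wv than in Cpa3Cre/+, against 2.09% of all genes with a smaller or more negative one. Among the 7 were Rgs1 (-2.94, adjusted p = 0.00366) and Itgb2 (-2.06, adjusted p = 0.000681). Most of these signalling genes are expressed by many leukocytes, and the part of the macrophages, whose markers are given above, was not tested.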

How the data were processed

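The series holds 17 Illumina arrays of total RNA, 1 per sample, processed with GenomeStudio per the submitters' processing notes. The deposited non-normalized file gives, per the file headers, an intensity and a detection p-value for each probe. Their computation is not stated, and 3401 to 7393 detected probes per array were dimmer than the brightest undetected probe, so background estimates are approximate. The deposited log2 values, normalized by the authors by an unstated method, served as an alternative.

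Intensities were background-corrected with neqc (limma 3.58.1, R 4.3.3, offset 16, detection p-values), quantile-normalized and log2-transformed. Probes detected (p below 0.05) on 2 or more arrays with 1 gene symbol were kept, with symbols updated through Entrez ID for 28620 of 35784 probes. The brightest probe stood for a gene, which left 25594 probes and 17166 genes. A model with 6 group means (lmFit, eBayes, 11 residual degrees of freedom) gave 12 contrasts, Benjamini-Hochberg adjusted over all genes at 0.05. Every member called in a contrast is named, and those with their detected pair-list partners are given by array. The members, the pair list and the other lists were chosen with earlier results of these data known. The fit was tested on simulated data. The number of arrays limits the precision. Same-numbered arrays of different groups had deviations that correlated at r of -0.47 to 0.36 (median 0.07 over 40 pairs), so the numbers were not taken to pair samples. Between Cpa3+/+ LFD and KitW/Wv LFD all 3 pairs were over 0.1, and 0 members were called there with or without a block. Also over 0.1 were all pairs of Cpa3+/+ LFD with Cpa3+/+ HFD (0.24 and 0.21) and of Cpa3+/+ HFD with KitW/Wv HFD (0.36 and 0.22). For diet in Cpa3+/+ the block changed which members were called, as given below. Promoter windows are from RefSeq (GRCm38.p6), and no source used here names a build for the arrays. Figures were drawn in Python. An item is not reported here.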

Additional observations from a re-analysis of the deposited data

Results flagged for a closer look

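The diet response of Ccl9 and of Ccl3 differed between genotypes by a test of the difference itself, the diet-by-genotype term between KitW/Wv and Cpa3Cre/+. For Ccl9 the response was 1.31 smaller on the log2 scale in KitW/Wv (-1.31, SE 0.26, adjusted p = 0.0126), from 1.81 in Cpa3Cre/+ and 0.50 in KitW/Wv. For Ccl3 it was 1.67 smaller (-1.67, SE 0.35, adjusted p = 0.0184), from 1.93 and 0.26. The HFD arrays of Cpa3Cre/+ lay above those of KitW/Wv for both genes without overlap. These arrays also enter the test of the difference, and in either direction they did not overlap for 4985 of all 17166 genes. On LFD 0 members differed between KitW/Wv and Cpa3Cre/+, where 0% of all genes did. Macrophage markers had median diet differences of 2.01 in Cpa3Cre/+ and 0.09 in KitW/Wv, and their part was not tested.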

How the results depend on the processing

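Each result was refitted under 10 other settings, with each array left out in turn, and without the 4 arrays high in a list of 2 or more measured markers of other cells, which was added after the data were seen. Of the called genes' values under these fits, 419 kept their side of the threshold, 57 fell short of it and 0 changed sign. Of the 336 counts of members called, 313 stayed within 1.5 times, counts of 0 that stayed 0 included. Most of the 12 comparisons called 0 members in the main fit, so this number says little about the comparisons with calls. The counts that moved were as follows, and their cause was not tested. Diet in Cpa3+/+ gave 0 when only the groups compared were fitted, 4 without the 4 arrays, and 0 to 4 with an array left out. Diet in Cpa3Cre/+ gave 11 with array weights (13.1% of all genes) and 12 without the 4 arrays, and 6 to 9 with an array left out. KitW/Wv against Cpa3+/+ on HFD gave 5 with array weights and 0 to 1 with an array left out. KitW/Wv against Cpa3Cre/+ on HFD gave 12 with array weights (17.7% of all genes), 10 without the 4 arrays, and 2 to 7 with an array left out. The diet-by-genotype term between them gave 4 with array weights (4.64% of all genes) and 1 to 2 with an array left out. With the replicate number as a block the counts were 3, 8 and 0 for diet in Cpa3+/+, Cpa3Cre/+ and KitW/Wv. It was 6 for KitW/Wv against Cpa3Cre/+ on HFD and 2 for the term between them. Under that block Cpa3+/+ gained Ackr1 (adjusted p = 0.0410) and Ccl27a (adjusted p = 0.0195) and lost Ccl3 (adjusted p = 0.0541), and Cpa3Cre/+ gained Ccl27a (adjusted p = 0.0271). Median scaling moved the median of all genes by up to 0.11, for diet in Cpa3Cre/+, where relative to that shift the called members kept their directions. Ccl24 between KitW/Wv and Cpa3Cre/+ had an adjusted p of 0.0507 on the authors' values. Cxcl14 there had 0.0616 on the authors' values, 0.0560 with a neqc offset of 50, 0.0624 without background correction and 0.0704 without the detection filter. Members near background, such as Ccl2 and Ccl3 on LFD, have compressed differences, and the group of 2 Cpa3+/+ HFD arrays limits what can be called there.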
